A study of Mus musculus with 6 samples.

Results

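Endothelial cells line all blood and lymphatic vessels, and 34 genes that mark them or act in early vessels were read in the mandibular arch of mouse embryos with and without Tbx1. The genes were taken by name, and each was represented by the probe set annotated to that gene alone. All 34 had such a probe set, among 19938 genes tested in all. They fall into 4 arterial genes (Dll4, Gja4, Gja5 and Sox17), 5 venous and lymphatic genes (Nr2f2, Aplnr, Prox1, Lyve1 and Stab2), 22 genes shared by most endothelium, of which 16 encode surface, junction or secreted proteins and 6 encode transcription factors, and 3 genes of sprouting vessels (Apln, Angpt2 and Esm1). RNA came from dissected mandibular arches at embryonic day 9.5 (E9.5) in the C57BL/6 strain, from Tbx1+/+ embryos (wild type, 3 arrays) and Tbx1-/- embryos (Tbx1 null, 3 arrays) that had no other stated allele or treatment. Arches of 3 embryos were pooled within a genotype, and the sources used here do not say whether each array carried its own pool or how the null allele was made. The p-values therefore measure the spread between these arrays, part of which may be technical. The question asked of each gene was whether its level differed between the genotypes.

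The first arch is vascularised while it grows: angioblasts from the cranial mesoderm form a plexus, and the first arch artery carries blood from the heart to the head before it is remodelled. ETS-family factors such as Etv2, Erg and Fli1 and the SoxF factors Sox7, Sox17 and Sox18 set up and keep endothelial identity. Notch signalling through Dll4 marks arteries, Nr2f2 represses arterial genes in veins, and Prox1 then commits some venous cells to the lymphatic fate. Tbx1, a T-box transcription factor, is made in the pharyngeal mesoderm from which part of this endothelium arises.

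Tbx1 itself (probe set 10438347) read 11.64, 11.36 and 11.31 on the wild-type arrays and 9.48, 9.39 and 9.63 on the Tbx1 null arrays, so that it fell with no overlap (difference -1.94, SE 0.097, limma adjusted p = 0.000684). Across all genes 17 were higher and 15 lower in Tbx1 null at an adjusted p of 0.05, which is 0.16% of those tested. All 14 mesenchymal markers of the labelled tissue were measured, at log2 levels from 8.27 to 13.01, so no defining marker was missing. The values are log2 levels made by the authors, a difference of 1 is 2-fold, and a difference is always Tbx1 null minus wild type. Precision here depends on the number of arrays and on each gene's spread between them, and there is no sequencing depth. The median standard error (SE) of a difference was 0.058 over all genes and 0.075 over the 34. No detection call per probe set was used here. Of the 34 genes, Esm1 alone had a mean level below the first quartile of all genes (6.81), and 7 had one below the median (8.55).

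Most endothelial genes stood at nearly the same level in both genotypes. None of the 34 passed the limma test over all genes, by adjusted p, in either direction, where 0.0853% of all genes were called higher and 0.0752% lower. The lowest adjusted p was 0.177, for Aplnr. At an unadjusted p under 0.05, 2 genes were higher in Tbx1 null (Aplnr and Angpt2; 5.5% of all genes were) and 3 were lower (Etv2, Nr2f2 and Sox17; 3.94% of all genes were). In both directions together this is 14.7% of the 34 beside 9.44% of all genes. The arrays of the genotypes did not overlap in 5 of the 34 genes (Etv2, Nr2f2, Aplnr, Angpt2 and Esam), or 14.7%, where 15.4% of all genes had no overlap. Of these, 2 were higher in Tbx1 null, beside 8.36% of all genes, and 3 were lower, beside 7.06%. The median difference of the 34 was -0.023, with 20 genes below 0 and 14 above, beside a median of -0.0061 over all genes, of which 53.5% were below 0. The 95% interval of the difference lay within 1.25-fold either way in 25 of the 34 genes (73.5%; 89.3% of all genes). Genes outside that bound were Dll4, Gja5, Sox17, Nr2f2, Aplnr, Tek, Clec14a, Etv2 and Angpt2. In bulk tissue, fewer endothelial cells and less RNA per cell cannot be told apart. The count of lower genes at an unadjusted p under 0.05 became 5 without Tbx1 null replicate 3, with Gja5 and Tek added. The median of the 34 was then -0.070, and it was -0.0074, -0.0063 and -0.037 without Tbx1 null replicate 1, Tbx1 null replicate 2 and wild type replicate 2.

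**Figure D1:**
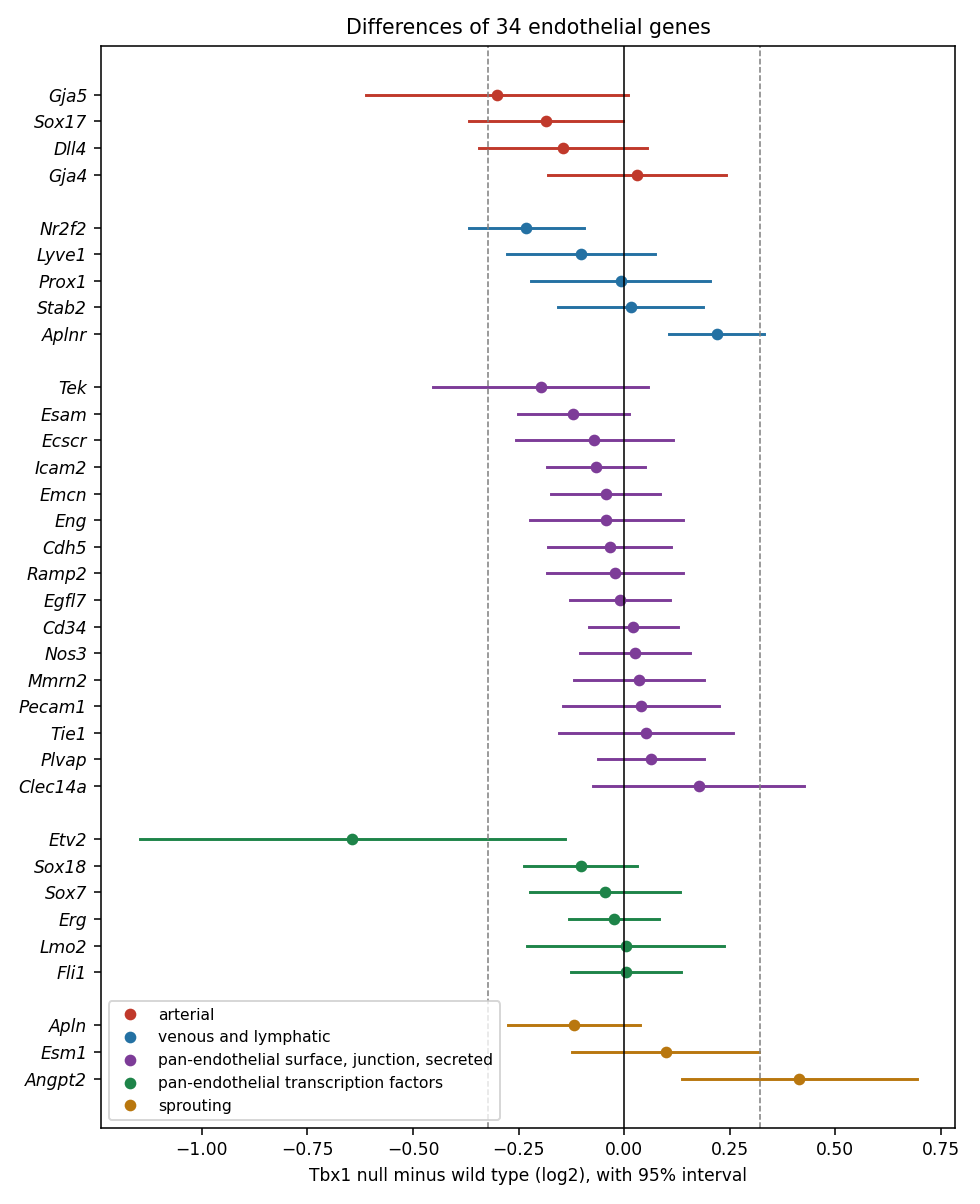
Difference between Tbx1 null and wild type for each of the 34 genes (log2, points) with its 95% interval from the fit over all genes (lines, 3 arrays per genotype), coloured by group. Dashed lines mark 1.25-fold either way. The 16 surface and junction genes lie between -0.20 and 0.18, while Etv2 at -0.64 and Angpt2 at 0.41 lie farthest out.

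Upstream sequence is shown for 4 of these genes, to set beside the levels what lies in front of a gene that differed between genotypes without overlap (Etv2 and Nr2f2) and of pan-endothelial genes that overlapped (Emcn and Tie1). Each is the run of 250 bases before the gene's start in RefSeq's GRCm38.p6, written 5′ to 3′ on the gene's strand: chr7:30635853-30636102 (minus strand) for Etv2, chr7:70366747-70366996 (minus) for Nr2f2, chr3:137340828-137341077 (plus) for Emcn and chr4:118489850-118490099 (minus) for Tie1. Capitals mark matches on either strand to AGGAAG or CGGAAG, the core letters that ETS-family factors bind.
Etv2: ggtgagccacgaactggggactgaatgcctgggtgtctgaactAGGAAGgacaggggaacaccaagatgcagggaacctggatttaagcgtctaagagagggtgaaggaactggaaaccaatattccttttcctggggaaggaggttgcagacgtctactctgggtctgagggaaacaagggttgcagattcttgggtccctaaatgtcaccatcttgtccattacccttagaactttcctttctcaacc
Nr2f2: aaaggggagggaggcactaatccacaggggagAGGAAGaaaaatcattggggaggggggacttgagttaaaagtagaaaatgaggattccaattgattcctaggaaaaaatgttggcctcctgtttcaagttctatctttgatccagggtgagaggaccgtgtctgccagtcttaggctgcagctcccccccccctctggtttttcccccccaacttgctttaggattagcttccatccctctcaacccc
Emcn: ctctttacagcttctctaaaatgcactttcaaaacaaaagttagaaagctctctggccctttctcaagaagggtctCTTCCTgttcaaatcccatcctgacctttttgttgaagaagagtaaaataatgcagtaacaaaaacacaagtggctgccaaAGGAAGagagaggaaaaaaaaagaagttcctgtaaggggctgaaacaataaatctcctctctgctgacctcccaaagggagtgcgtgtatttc
Tie1: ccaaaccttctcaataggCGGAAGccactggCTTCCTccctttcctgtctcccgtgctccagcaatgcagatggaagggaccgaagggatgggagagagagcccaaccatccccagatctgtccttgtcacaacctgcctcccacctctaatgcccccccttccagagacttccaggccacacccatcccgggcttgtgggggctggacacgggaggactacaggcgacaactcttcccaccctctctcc
Etv2 and Nr2f2 each had 1 match, and Emcn and Tie1 had 2 each. Such promoters were given for 17 of the 34 genes. Of these, 11 (64.7%) held a match, as did 42.5% of all 27025 genes in the RefSeq table and 39.2% of all its 32851 windows. The T-box core GGTGTGA, searched on both strands, was found in front of 1 of the 17 (Erg) and of 3.84% of all genes. These letter matches describe the windows and say nothing of binding.

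The 16 surface, junction and secreted genes shared by most endothelium were close to level between the genotypes. They lay between -0.20 and 0.18, 9 below 0 and 7 above, with a median of -0.016, and none reached an unadjusted p under 0.05. Leaving out 1 array at a time moved the median from -0.061 (without Tbx1 null replicate 3) to 0.015 (without Tbx1 null replicate 2). Cdh5, the VE-cadherin of endothelial adherens junctions, ranged from 11.69 to 11.70 in wild type and from 11.57 to 11.79 in Tbx1 null. The wild-type arrays were nearly identical, and the Tbx1 null arrays lay on either side of them (difference -0.034, SE 0.063, 95% interval -0.18 to 0.11). Cd34, a sialomucin of endothelial and blood progenitors, read 11.92, 12.03 and 12.00 on wild type replicates 1, 2 and 3 and 11.98, 12.02 and 12.01 on Tbx1 null replicates 1, 2 and 3. Array values below are given in that order. Its arrays overlapped fully, and its interval of -0.084 to 0.13 was the narrowest of the 34. Emcn, the sialomucin endomucin of venous and capillary endothelium, read 12.00, 12.12 and 12.06 in wild type and 11.94, 12.01 and 12.09 in Tbx1 null, again with overlap (difference -0.044). Pecam1, the adhesion molecule CD31, ranged from 9.14 to 9.45 in wild type and from 9.35 to 9.39 in Tbx1 null (difference 0.041, 95% interval -0.14 to 0.23).

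Differences were larger in Tek, Esam and Clec14a, though none of them passed. Tek, the receptor tyrosine kinase TIE2 for angiopoietins, read 10.29, 10.07 and 10.13 in wild type and 9.77, 9.93 and 10.20 in Tbx1 null. Only Tbx1 null replicates 1 and 2 lay below all wild-type arrays (difference -0.20, SE 0.11, limma adjusted p = 0.645). Without Tbx1 null replicate 3 the difference of Tek was -0.31 (limma adjusted p = 0.369), and without Tbx1 null replicate 1 it was -0.099; over all alternatives its adjusted p ran from 0.244 to 0.889. Esam, an adhesion molecule of endothelial tight junctions, read 10.52, 10.50 and 10.51 in wild type and 10.28, 10.47 and 10.42 in Tbx1 null. Every Tbx1 null array of Esam was lower, by a gap of 0.031 at the closest (difference -0.12, SE 0.057, adjusted p = 0.570), and the difference of Esam was -0.066 without Tbx1 null replicate 1. Clec14a, a C-type lectin of sprouting endothelium, had a difference above 0, with 7.36, 7.36 and 7.70 in wild type against 7.50, 7.71 and 7.75 in Tbx1 null, with overlap (difference 0.18, adjusted p = 0.679). For Clec14a it was 0.29 without wild type replicate 3, at an unadjusted limma p under 0.05 and an adjusted p = 0.265, and 0.12 without wild type replicate 1 or 2. In the other surface genes the ranges of the genotypes overlapped. Tie1, the partner receptor of Tek, ranged from 9.56 to 9.64 in wild type and from 9.52 to 9.87 in Tbx1 null (difference 0.052). Eng, a TGF-beta and BMP co-receptor, ranged from 10.76 to 10.89 and from 10.67 to 10.96 (-0.042), and Plvap, the protein of fenestral diaphragms, from 10.30 to 10.43 and from 10.39 to 10.51 (0.064). Nos3, the endothelial nitric oxide synthase, ranged from 9.02 to 9.13 and from 9.03 to 9.18 (0.026), and Egfl7, a secreted matrix protein, from 10.91 to 11.02 and from 10.90 to 10.99 (-0.011). These 5 differed by less than 1.25-fold at either end of their intervals. Ramp2, the adrenomedullin receptor subunit, ranged from 10.17 to 10.22 and from 10.10 to 10.34 (-0.022), and Ecscr, a surface protein of endothelial migration, from 9.99 to 10.31 and from 10.03 to 10.10 (-0.071). Icam2, an adhesion molecule, ranged from 8.87 to 8.98 and from 8.82 to 8.91 (-0.066), and the matrix protein Mmrn2 from 9.11 to 9.34 and from 9.20 to 9.26 (0.035).

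Of the 6 transcription factors, Etv2 had a lower level on every Tbx1 null array and the other 5 overlapped. Etv2, the ETS factor that opens the endothelial and blood programme in mesoderm and is then switched off (probe set 10562064), read 10.21, 9.30 and 9.46 in wild type and 8.93, 8.92 and 9.20 in Tbx1 null. All Tbx1 null arrays were below all wild-type arrays, by 0.10 at the closest, and wild type replicate 1 was far above the other wild-type arrays. Its mean was 9.66 ± 0.49 in wild type and 9.01 ± 0.16 in Tbx1 null, 1.56-fold lower (difference -0.64, SE 0.22, 95% interval -1.15 to -0.14, limma adjusted p = 0.400). Without wild type replicate 1 the difference was -0.37. Over all alternatives it kept its direction, with an adjusted p from 0.169 to 0.702. Its spread within a genotype exceeded that of 99.7% of all genes.

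The factors that act later than Etv2 were nearly level. Fli1, an ETS factor of endothelium and blood, read 11.61, 11.70 and 11.76 in wild type and 11.72, 11.73 and 11.63 in Tbx1 null (difference 0.0044, 95% interval -0.12 to 0.13). Erg, the ETS factor that maintains differentiated endothelium, ranged from 9.35 to 9.41 in wild type and from 9.33 to 9.42 in Tbx1 null (difference -0.024, 95% interval -0.13 to 0.082). Lmo2, the LIM-only bridge of blood and endothelial complexes, read 11.06, 10.68 and 10.78 in wild type and 10.77, 10.79 and 10.97 in Tbx1 null, with the wild-type value of replicate 1 the highest. The intervals of Fli1 and Erg did not reach the difference measured for Etv2. Those of Lmo2, Sox7 and Sox18 went as low as -0.23, -0.22 and -0.24, inside the interval of Etv2, which ended at -0.14. A difference between genes was not tested. Sox18 and Sox7, SoxF factors of early vessels, had differences of -0.10 and -0.046. Sox7 ranged from 8.89 to 9.16 in wild type and from 8.87 to 9.00 in Tbx1 null. Sox18 read 10.63, 10.48 and 10.50 in wild type and 10.37, 10.49 and 10.44 in Tbx1 null, so that a single Tbx1 null array overlapped the wild-type range, and its difference was -0.057 without wild type replicate 1. The median of the 6 factors was -0.035, from -0.087 (without wild type replicate 2) to -0.0099 (without Tbx1 null replicate 1).

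Arterial genes had the lowest median of the groups, -0.17, with 3 of 4 below 0 and no gene free of overlap. Sox17, the SoxF factor of arterial endothelium that is also made in endoderm, read 8.37, 8.11 and 8.23 in wild type and 7.95, 8.05 and 8.15 in Tbx1 null. Tbx1 null replicate 3 lay within the wild-type range (difference -0.18, SE 0.079, limma adjusted p = 0.519), and the difference was -0.12 without wild type replicate 1. Gja5, the connexin 40 of arteries, read 8.89, 8.62 and 8.95 in wild type and 8.27, 8.52 and 8.77 in Tbx1 null. Its arrays overlapped and were among the most variable of the 34 (difference -0.30, SE 0.13, limma adjusted p = 0.540). Leaving out Tbx1 null replicate 1 gave -0.18 and leaving out Tbx1 null replicate 3 gave -0.43 for Gja5. Dll4, the Notch ligand of arteries and tip cells, read 9.19, 9.46 and 9.39 in wild type and 9.06, 9.27 and 9.27 in Tbx1 null, with overlap through wild type replicate 1 (difference -0.15, adjusted p = 0.669). The difference of Dll4 was -0.078 with Tbx1 null replicate 1 left out, -0.089 with wild type replicate 2 left out and -0.22 with wild type replicate 1 left out. Gja4, the connexin 37 of small arteries, ranged from 8.20 to 8.53 in wild type and from 8.34 to 8.52 in Tbx1 null. Its difference was 0.030, a sign that turned to -0.0050 after quantile normalisation again and to -0.034 with array weights. The arterial median stayed between -0.21 and -0.11 with any array left out, the latter without Tbx1 null replicate 1.

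Among venous and lymphatic genes, Nr2f2 was lower and Aplnr higher on every Tbx1 null array. Nr2f2, the nuclear receptor COUP-TFII that keeps venous identity and is also made in arch mesenchyme (probe set 10564527), read 11.59, 11.60 and 11.64 in wild type and 11.35, 11.29 and 11.49 in Tbx1 null. Every Tbx1 null array was lower, by 0.099 at the closest, for a 1.17-fold lower mean (difference -0.23, SE 0.058, 95% interval -0.37 to -0.096, limma adjusted p = 0.239). Nr2f2 passed in a single alternative, with weights for each array (difference -0.26, limma adjusted p = 0.0366, range over all alternatives 0.0366 to 0.606). The weights were 3.0 for wild type replicate 2 and 0.51 and 0.41 for wild type replicates 1 and 3. The wild-type side of that setting thus rests largely on replicate 2, for every gene said to pass with array weights. Aplnr, the apelin receptor of veins and of early mesoderm (probe set 10473444), read 10.56, 10.63 and 10.60 in wild type and 10.77, 10.80 and 10.88 in Tbx1 null. All Tbx1 null arrays were higher, by 0.14 at the closest, for a 1.16-fold higher mean (difference 0.22, SE 0.048, 95% interval 0.11 to 0.33, limma adjusted p = 0.177). With any array left out, Aplnr stayed between 0.19 and 0.24 and Nr2f2 between -0.29 and -0.19. Arch mesenchyme markers, read as a summed log2 level, were higher in Tbx1 null over the same arrays (15.44 to 15.59 in wild type, 15.60 to 15.69 in Tbx1 null), and their part in the level of Nr2f2 was not tested.

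The other 3 genes of this group, Prox1, Lyve1 and Stab2, showed no such separation. All 3 had a mean level below the median of all genes. Whether the arch held lymphatic endothelium at this age was not tested. Prox1, the homeobox factor of lymphatic fate that other embryonic tissues also make, ranged from 8.11 to 8.35 in wild type and from 8.06 to 8.35 in Tbx1 null (difference -0.0084, 95% interval -0.22 to 0.20). Its ranges nearly coincided. Lyve1, a hyaluronan receptor of lymphatic endothelium and macrophages, ranged from 6.73 to 6.97 against 6.67 to 6.85 (difference -0.10, adjusted p = 0.751), and Stab2, a scavenger receptor of sinusoidal and early venous endothelium, ranged from 7.45 to 7.67 against 7.52 to 7.71 (difference 0.015). The difference of Lyve1 was -0.17 when wild type replicate 3 was left out and -0.048 when replicate 2 was. Lyve1 was dim, near the first quartile of all genes. The group's median of -0.0084 ran from -0.090 (without Tbx1 null replicate 3) to 0.063 (without wild type replicate 1).

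Of the 3 genes of sprouting vessels, Angpt2 was higher in Tbx1 null on every array. Angpt2, the angiopoietin that loosens vessels by acting on Tek (probe set 10577315), read 8.83, 8.66 and 8.62 in wild type and 8.92, 9.04 and 9.40 in Tbx1 null. The genotypes were separated by 0.089 at the closest, and Tbx1 null replicate 3 was highest. The mean was 8.70 ± 0.11 in wild type and 9.12 ± 0.25 in Tbx1 null, 1.33-fold higher (difference 0.41, SE 0.12, 95% interval 0.14 to 0.69, limma adjusted p = 0.317). Its difference was 0.28 with Tbx1 null replicate 3 left out and 0.51 with Tbx1 null replicate 1 left out. Its adjusted p over all alternatives ran from 0.0857 to 0.605. Apln, the apelin ligand of Aplnr made by tip cells, read 9.58, 9.65 and 9.78 in wild type and 9.63, 9.55 and 9.46 in Tbx1 null, with overlap, on the other side of 0 from its receptor (difference -0.12, adjusted p = 0.648). The difference of Apln was -0.065 without wild type replicate 3 and -0.077 without Tbx1 null replicate 3. Esm1, a proteoglycan of tip cells, ranged from 6.22 to 6.52 in wild type and from 6.31 to 6.59 in Tbx1 null, at the lowest levels of the 34 (difference 0.098). The median of the 3 genes was 0.098, and 0.021 without wild type replicate 3. Their summed log2 level was 10.34 to 10.39 in wild type and 10.42 to 10.51 in Tbx1 null, without overlap. Apln and Angpt2 contribute most to this sum. Of the 3 genes only Angpt2 was itself free of overlap, and Apln had a difference below 0.

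**Figure D2:**
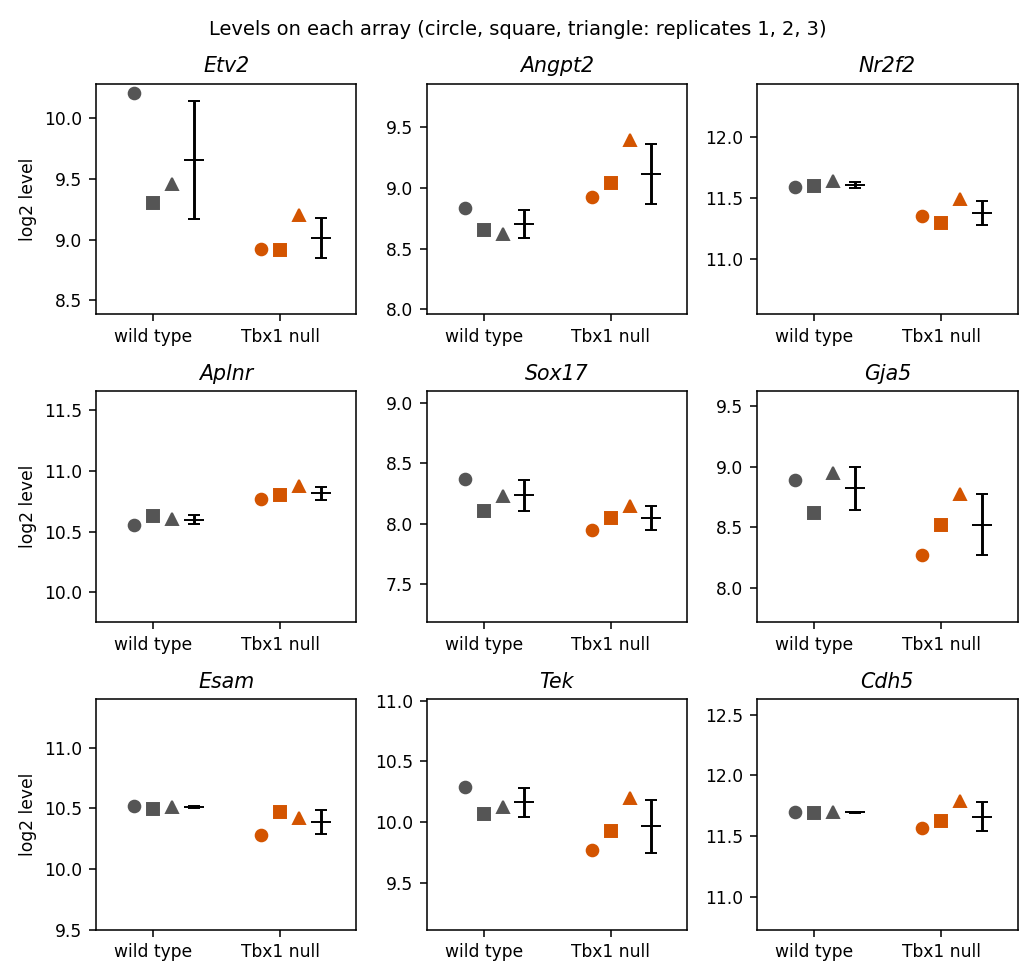
Levels of 9 of the genes on each array (log2, y axis; every panel spans the same range of log2 units), with the mean ± SD of 3 arrays beside each genotype. Etv2, Angpt2, Nr2f2, Aplnr and Esam have no overlap between genotypes, while Sox17, Gja5, Tek and Cdh5 overlap through Tbx1 null replicate 3.

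The Tbx1 null arrays differed from each other in the same direction across many of these genes. Tbx1 null replicate 3 gave the highest value of its genotype in 24 of the 34 genes (70.6%), beside 38.5% of all genes. It was above the mean of its genotype in 29 of the 34, beside 9768 of all 19938 genes. Tbx1 null replicate 1 gave the lowest value in 20 of the 34, beside 6048 of all 19938 genes. As medians of the 34 deviations from each gene's mean over 6 arrays, the wild-type replicates 1, 2 and 3 stood at 0.034, -0.00047 and 0.019 and the Tbx1 null replicates 1, 2 and 3 at -0.069, -0.030 and 0.045. Tbx1 null replicate 3 was thus above every wild-type array and Tbx1 null replicates 1 and 2 below. The summed level of the 34, in log2 units, lay between 15.34 and 15.37 in wild type and between 15.26 and 15.39 in Tbx1 null, with overlap. The SD of this sum was 0.016 over the wild-type arrays and 0.065 over the Tbx1 null arrays. Gene by gene the spread was not wider in Tbx1 null: its SD was the larger in 14 of the 34 genes, and the median SD was 0.11 in wild type and 0.095 in Tbx1 null. All 4 arterial genes were highest on Tbx1 null replicate 3 within their genotype, and 12 of the 16 surface and junction genes were.

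**Figure D3:**
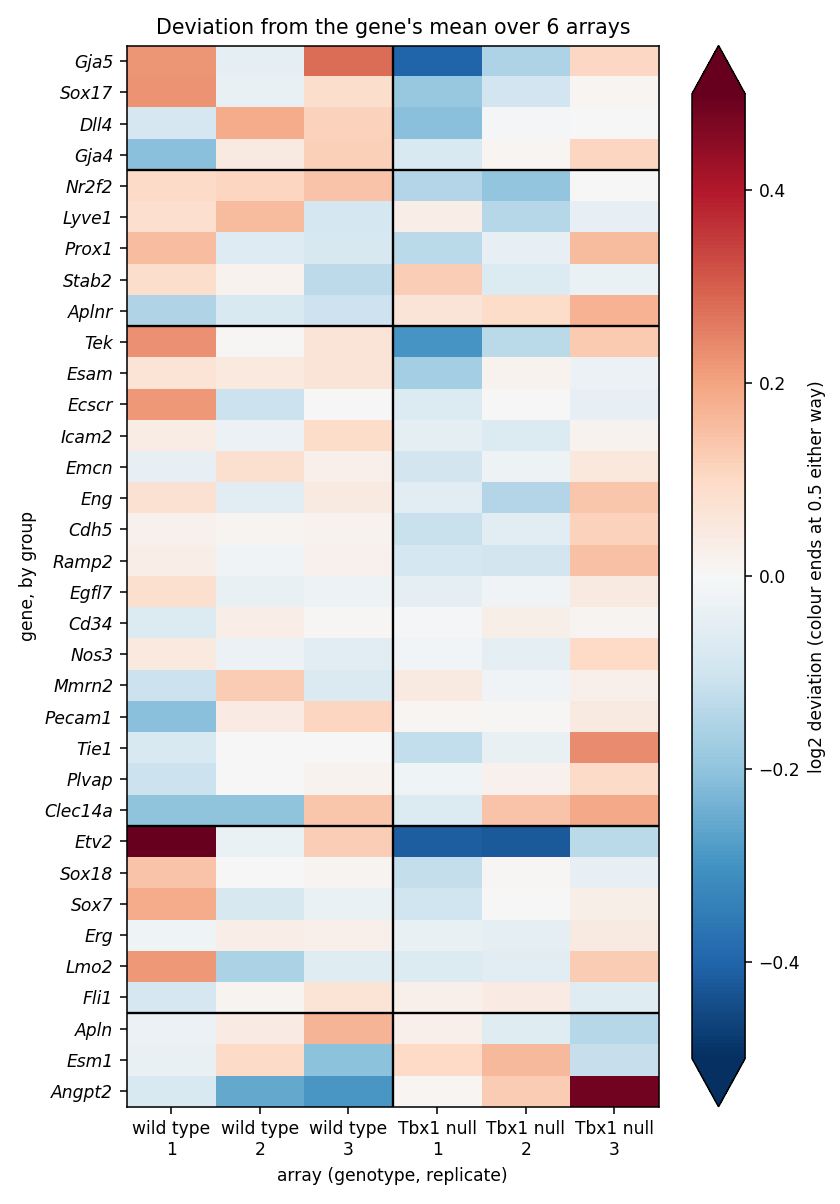
Deviation of each gene from its mean over 6 arrays (log2 colour scale, red above and blue below), with arrays in columns and genes in rows, separated by group. The columns of Tbx1 null replicates 1 and 3 differ from each other across the pan-endothelial rows, whose medians over all 34 genes are -0.069 and 0.045.

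A further 42 endothelial and vessel genes outside the 34, all measured, were tested in the same fit, and none passed. At an unadjusted limma p under 0.05, 5 stood higher and 3 lower (19.0%, against 9.44% of all genes), and the median was 0.0044. Gata2, a zinc-finger factor of endothelium and blood progenitors that neurons also make, read 9.32, 9.22 and 9.43 in wild type and 9.68, 9.57 and 9.59 in Tbx1 null. All Tbx1 null arrays of Gata2 were higher (difference 0.29, SE 0.063, limma adjusted p = 0.177, and 0.0188 with array weights). Exoc3l2, an exocyst-related protein of endothelium, had a difference of 0.13, and Adgrl4, an adhesion receptor of angiogenic endothelium, 0.29. The VEGF receptors overlapped between genotypes: Kdr, the main receptor of vascular growth, had -0.040, Flt1, its decoy, -0.035 and Flt4, the receptor of lymphatic growth, -0.11. With an array left out, Kdr ranged from -0.11 to 0.011, Flt1 from -0.089 to -0.0027 and Flt4 from -0.21 to -0.014; the lowest value of each was without Tbx1 null replicate 3. As with the 34, Tbx1 null replicate 3 was the highest of its genotype in 33 of the 42 (78.6%, beside 38.5% of all genes). Beside the arterial and venous members, and chosen after their values were seen, the ephrin ligand of arteries Efnb2 had -0.16 and its venous receptor Ephb4 0.12. The Notch targets Hey1 and Hey2 had -0.20 and 0.32, in opposite directions, and none of the 4 passed the limma test. Other genes of the list tied to arteries or veins were mixed. Nrp1 had 0.10, without overlap, and Nrp2 -0.15, while Notch1 had -0.017, Notch4 0.040 and Cxcr4 0.097. Jag1 had -0.16 and Bmx -0.061, both below 0 like Efnb2 and with overlap, and Bmx lay below the first quartile of all genes. These were also named after their values were seen. Of the 42 genes, 21 were above 0 and 21 below.

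Markers of other cell types that share the arch with vessels were read beside them, and no listed gene passed by adjusted p. Primitive red cells circulate through these vessels, and 16 of 20 listed genes were measured. All 16 were below 0, with a median of -0.22. At an unadjusted limma p under 0.05, 14 of them were lower (87.5%, beside 3.94% of all genes). The summed log2 level of the red-cell genes was 15.33 to 15.37 in wild type and 15.11 to 15.19 in Tbx1 null, with no overlap. Slc4a1, the red-cell anion exchanger, had a difference of -0.40 with a limma adjusted p = 0.0577. The erythroid factor Klf1 followed with -0.37 (adjusted p = 0.0651) and Gata1, the master factor of red cells, with -0.32 (adjusted p = 0.124). Slc4a1 and Klf1 passed in some alternatives, with adjusted p ranging from 0.0151 to 0.239 and from 0.0172 to 0.234. Tbx1 null replicate 3 was the lowest of its genotype in 10 of the 16 red-cell genes, beside 7899 of all 19938 genes. It was the highest in 24 of the 34 endothelial genes, beside 38.5% of all genes. Etv2 and the red-cell genes were lower over the same arrays, and the part of blood cell content in any endothelial difference was not tested.

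Mural cells, the smooth muscle cells and pericytes around vessels, were read by 12 genes that other contractile cells also make. At an unadjusted limma p under 0.05, 5 of these stood higher and 1 lower in Tbx1 null (50%, beside 9.44% of all genes), with a median of 0.14. Their summed log2 level was 13.09 to 13.21 in wild type and 13.35 to 13.59 in Tbx1 null, without overlap. The smooth muscle actin Acta2 had a difference of 1.09 (limma adjusted p = 0.0865), and the contractile proteins Cnn1 and Tagln had 0.44 and 0.47. Acta2 had the largest difference of the 12, and the sum was not read without it. Of the 12 genes, 10 were above 0 and 2 below. Named after their values were seen, Kcnj8 had -0.13, without overlap, and Anpep -0.015, Myh11 0.025 and Cspg4 0.052, with overlap. Acta2 passed with array weights and without wild type replicate 1, and its adjusted p over all alternatives ran from 0.00808 to 0.295. Tbx1 null replicate 3 was the highest of its genotype in 8 of the 12, beside 38.5% of all genes, as it was for Angpt2. The part of mural cells in the level of Angpt2 was not tested.

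White blood cell markers were dim, 9 of 16 below the first quartile of all genes, with overlapping summed levels (11.45 to 11.56 against 11.45 to 11.53). At an unadjusted limma p under 0.05, 1 of these markers was above 0 and 2 were below (18.75%, beside 9.44% of all genes). Their lowest p values were those of Spi1, a myeloid factor, at -0.18, Laptm5, a lysosomal protein of leukocytes, at -0.35 and the macrophage protein Cd68 at 0.25. Platelet genes, of which 6 of 10 were measured, had a median of -0.10 and overlapping summed levels (10.46 to 10.74 against 10.38 to 10.57). The integrin Itga2b had a difference of -0.14, and the platelet chemokines Ppbp and Pf4 had -0.35 and -0.30 with wide spread between arrays.

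The 5 endocardial genes had a median of 0.030, and their summed level was 12.71 to 12.77 in wild type and 12.94 to 13.05 in Tbx1 null, without overlap. That separation came with Gata5 (0.80) and Hand2 (0.56), cardiac and arch factors, while Nfatc1, the factor most specific to endocardium, had -0.15. Arch mesenchyme markers had a median of 0.068. At an unadjusted limma p under 0.05 there were 6 of 14 above 0 and 1 below (50%, beside 9.44% of all genes). The homeobox factor Prrx2 had 0.23, the bHLH factor Hand1 0.50 and the homeobox factor Msx1 0.44; Prrx2, Hand1, Msx1 and Gata5 passed in some alternatives, and their adjusted p as fitted ranged from 0.116 to 0.239. Hand2 is on both the endocardial and the mesenchymal list, and Tal1 on both the endothelial and the red-cell list.

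**Figure D4:**
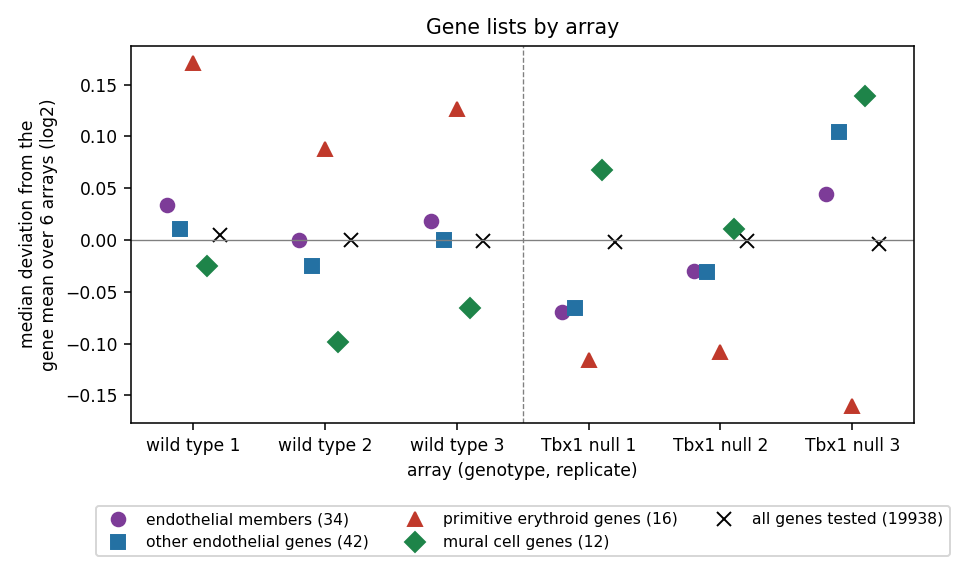
Median deviation of each gene list from the gene means over 6 arrays (log2, y axis) on each array (x axis, genotype and replicate); each symbol is 1 list. On Tbx1 null replicate 3 the 34 endothelial genes stand at 0.045 and the 42 other endothelial genes at 0.10, while the red-cell genes stand at -0.16 and the mural genes at 0.14.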

How the data were processed

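Tbx1+/+ and Tbx1-/- mandibular arches were read on Affymetrix Mouse Gene ST 1.0 arrays, 3 per genotype. The authors deposited log2 values. Per the submitters' processing notes these are RMA summaries from Affymetrix Expression Console 1.1. They lay between 3.63 and 14.6, with array medians of 7.98 to 8.04. RMA scales the probe values of all arrays to 1 distribution, so a change in total RNA cannot be seen. The summarised levels still differed slightly between arrays, as their medians show. Of 35556 probe sets, 21789 had 1 gene symbol in GEO's platform annotation, 1621 several and 12146 none. A gene was represented by its 1-symbol probe set with the highest mean, which left 19938 genes. A Ramp2 probe set also annotated to another gene was left out.

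For all 6 arrays, lmFit and eBayes of limma 3.58.1 (R 4.3.3) gave two-sided tests with no covariate and with Benjamini-Hochberg adjustment over all genes, at a threshold of 0.05. In data simulated for this comparison over 19938 genes, the fit recovered 18 of 50 genes changed 1.25-fold and 48 of 50 changed 1.5-fold. That fit made 180 calls, where the fit to the real arrays made 32, so its adjusted p was easier to pass. Its variances were drawn for all genes, whose median SE (0.058) was below that of the 34 (0.075). The simulated recovery is therefore too high for the 34 genes. Array values are given for genes at an unadjusted p under 0.05, genes whose arrays do not overlap, and in each group the 2 of highest mean level and the 2 of largest difference; other members are given by the range of their arrays. Of genes outside the 34, Tbx1, the 3 VEGF receptors and up to 3 of lowest p per list are named, with exceptions said. The members and lists were chosen with earlier results of these data known. Medians and counts of lists carry no test.

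Alternatives were the replicate number as a block, each array left out, quantile normalisation again, centring on the array median, 2 filters on low levels, trend and robust eBayes, array weights, averaging the probe sets of a gene, and testing every probe set. Promoter sequences came from RefSeq (GRCm38.p6), the window being 250 bases before the start, with 17 of 34 genes matched.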

Additional observations from a re-analysis of the deposited data

How the results depend on the processing

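The 34 genes gave 502 results under 15 alternatives. In every one Aplnr, Angpt2, Etv2, Nr2f2, Sox17, Gja5, Tek and Esam kept their direction, as 18 of the 34 did. Many of these results could not have turned. The block, both level filters, trend and robust eBayes, and both changes in the use of probe sets leave a member's difference as it was. A gene without overlap also keeps its direction when 1 array is left out. A single gene passed the test in 1 setting (Nr2f2, array weights, so that the count of members lower was 1). Over all genes, 17 were called higher and 15 lower; these counts were 226 and 108 with array weights, 57 and 39 with trend and robust eBayes, 1 and 3 with every probe set and 2 and 4 with the replicate block, and 30 were lower after centring. With an array left out they ran from 0 to 12 and from 3 to 10. The replicate block called none of the 34. With it Dll4, Gja5 and Clec14a came under an unadjusted limma p of 0.05, and Sox17 no longer did. Same-numbered arrays correlated by -0.045, 0.26 and 0.15 in their deviations. Wild type replicates 2 and 3 correlated best with the same-numbered Tbx1 null array, but wild type replicate 1 did so with Tbx1 null replicate 3. The labels do not state a pairing, and the numbers were not taken as pairs. Members lower at an unadjusted p under 0.05 numbered 3, and 5 with array weights, 6 after centring, 8 after quantile normalisation again and 2 to 5 with an array left out. The median of the members then ran from -0.070 to -0.0063 and that of the venous and lymphatic genes from -0.090 to 0.063. The cause of these moves was not tested.

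In the other 16 genes, whose differences lay near 0, the sign turned in some setting. With array weights it turned for Gja4 (-0.034), Pecam1 (-0.0019), Tie1 (-0.027), Egfl7 (0.00096), Cd34 (-0.0057), Ecscr (0.020), Mmrn2 (-0.060) and Sox7 (0.0048). Centring turned Stab2 (-0.011), Cd34 (-0.0050), Nos3 (-0.00094), Fli1 (-0.022) and Lmo2 (-0.023), and quantile normalisation again turned Gja4 (-0.0050), Nos3 (-0.022), Mmrn2 (-0.010) and Lmo2 (-0.0067). These scalings moved the median of all genes to -0.033 and -0.021. With an array left out the ranges were -0.068 to 0.097 for Gja4, -0.090 to 0.067 for Prox1, -0.046 to 0.063 for Stab2, -0.053 to 0.10 for Pecam1, -0.10 to 0.012 for Cdh5, -0.053 to 0.13 for Tie1, -0.12 to 0.020 for Eng, -0.036 to 0.026 for Egfl7, -0.0078 to 0.043 for Cd34, -0.10 to 0.018 for Ramp2 and -0.14 to 0.019 for Ecscr. They were -0.019 to 0.057 for Nos3, -0.010 to 0.11 for Mmrn2, -0.037 to 0.039 for Fli1, -0.075 to 0.11 for Lmo2, -0.098 to 0.036 for Sox7 and -0.11 to 0.011 for Kdr. With 3 arrays per genotype, differences under about 1.25-fold were mostly below what the fit could call. Some larger ones, such as Etv2 at 1.56-fold and Acta2 at 2.13-fold, were not called either. Signal over background per probe set was not used here.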
